A study of Homo sapiens with 6 samples.

Results

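The genes of cytosolic translation elongation were examined in cells labelled HCCLM3, an established hepatocellular carcinoma line. They were EEF1A1, EEF1A2, EEF1B2, EEF1D, EEF1G, EEF1E1 and EEF2, which are 7 of the 35856 genes in the deposited table. The genes were picked by name, with their values in the contrast of LINC00862 against control already known. Their fold changes are therefore given as a description, with no p-value.

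Elongation adds amino acids to the growing peptide on the ribosome. The GTPase eEF1A, encoded by the paralogs EEF1A1 and EEF1A2, delivers aminoacyl-tRNA, the eEF1B complex exchanges its GDP for GTP, and the GTPase eEF2 then moves the ribosome along the mRNA. EEF1A1 is expressed in almost all cells, whereas EEF1A2 is known from muscle, heart and neurons and has been described as raised in several carcinomas.

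The series compared HCCLM3 cells transfected with the long noncoding RNA LINC00862 in a pcDNA3.1 plasmid and cells given the empty plasmid, labelled NC. Each group had 3 libraries, made from poly(A) RNA, and no other agent, allele or time was labelled. Whether the sequenced cells were a clone, a stable pool or transiently transfected was not given in the sources used here. Nothing stated that the 3 libraries of a group came from separate cultures, so p-values measure only the spread between libraries, which may be technical.

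LINC00862 itself was counted 11, 21 and 6 times in the NC libraries and 145, 121 and 76 times in the LINC00862 libraries. Its FPKM was 0.042, 0.088 and 0.021 in NC and 0.530, 0.506 and 0.312 in LINC00862, a low level in every library. The groups did not overlap, and its log2 fold change was 3.22 ± 0.53 (SE; adjusted p = 0.000583, from the quasi-likelihood test of edgeR, adjusted by Benjamini-Hochberg). Libraries held between 58241123 and 68229070 counts. Of the 20741 genes with enough counts to test, 64.2% had an adjusted p under 0.05 in either direction, and the median log2 fold change over all tested genes was 0.11. Markers of other identities moved as well. The 11 hepatocyte markers in the table summed to between 4.40 and 4.67 FPKM in NC and to between 809 and 924 FPKM in LINC00862, and all 9 that could be tested passed, 7 higher and 2 lower. The log2 fold changes of these 9 ranged from -7.48 to 9.20. ALB, the albumin gene, had 0, 0 and 7 counts in NC and 423, 394 and 282 in LINC00862. APOA1 had at most 14 counts and APOA2 at most 3 in any library. The 6 epithelial markers summed to between 194 and 287 FPKM in NC and to between 442 and 506 in LINC00862. Of these, 5 were higher, EPCAM at a log2 fold change of 8.34 ± 0.22 among them (SE, adjusted p under 0.05 by edgeR). In bulk RNA, fewer cells of a type and less RNA per cell cannot be told apart, and the part of these markers in the results on the elongation factors was not tested. The table does not show whether the cells of both groups were still the same line, so an effect of LINC00862 on the elongation factors, EEF1A2 included, and a difference between the cells of the groups cannot be told apart.

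The EEF1A pair carried the widest difference among the 7 genes. EEF1A2 was nearly silent in NC, at 93, 85 and 106 counts, and reached 42187, 36955 and 24695 counts in LINC00862. On the per-length FPKM scale, which divides counts by gene length and library size, these were 0.287, 0.263 and 0.321 in NC and 114, 116 and 76.3 in LINC00862. Every LINC00862 library lay above every NC library, with a mean level of 0.290 ± 0.029 in NC and 102 ± 22.4 FPKM in LINC00862 (SD, n = 3). The fitted log2 fold change was 8.59 ± 0.24 (SE), or 385-fold. By FPKM, EEF1A2 ranked between 14285 and 15206 of the 35856 genes in NC and between 270 and 353 in LINC00862.

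EEF1A1 was among the most abundant transcripts of every library. Its FPKM was 1295, 1390 and 1399 in NC and 1330, 1392 and 910.2 in LINC00862, with ranks between 19 and 24 in NC and between 26 and 37 in LINC00862. The groups overlapped, and LINC00862 library 3 alone lay below the rest. The log2 fold change was -0.01 ± 0.20 (SE), and its sign turned with the scaling and with which library was left out, over a range of -0.19 to 0.20 across 13 alternatives. A difference of EEF1A1 between the groups was thus not resolved from the spread of the libraries.

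Since EEF1A1 and EEF1A2 code for nearly the same protein, their sequences were compared to see how far reads could be shared. The first 90 bases of each coding sequence, from GENCODE release 29 transcripts, are shown with capitals in EEF1A2 where it departs from EEF1A1.
EEF1A1: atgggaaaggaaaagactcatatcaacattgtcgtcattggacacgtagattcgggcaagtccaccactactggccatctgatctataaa
EEF1A2: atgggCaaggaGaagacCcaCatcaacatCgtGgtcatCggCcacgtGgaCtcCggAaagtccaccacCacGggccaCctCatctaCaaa
Within these 90 bases the paralogs differed at 17 positions. Over the aligned coding sequence 1083 of 1386 bases were identical (78.1%), and the longest identical run of the EEF1A2 transcript with any EEF1A1 transcript was 20 bases. None of the 1865 windows of 150 bases, the length of 1 read, in the EEF1A2 transcript occurred in an EEF1A1 transcript. The processed pseudogene EEF1A1P5, an intronless copy, was a different case, with 1382 of 1386 bases identical to EEF1A1 (99.7%) and an unbroken shared run of 425 bases.

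EEF1A1P5 was counted 33585, 37866 and 34668 times in NC and 41740, 34359 and 33052 times in LINC00862. The groups overlapped, and the gene did not pass the test (log2 fold change 0.13 ± 0.15, SE; adjusted p = 0.481, edgeR). The table held 15 genes named as EEF1A1 pseudogenes, of which 7 could be tested and none passed. Together they took between 7.07% and 9.78% of the counts of EEF1A1 and its pseudogenes. Of the 1237 windows of 150 bases in the EEF1A1 coding sequence, 711 (57.5%) also occurred in one of these pseudogenes, so how the reads were split between parent and copies is uncertain.

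**Figure D1:**
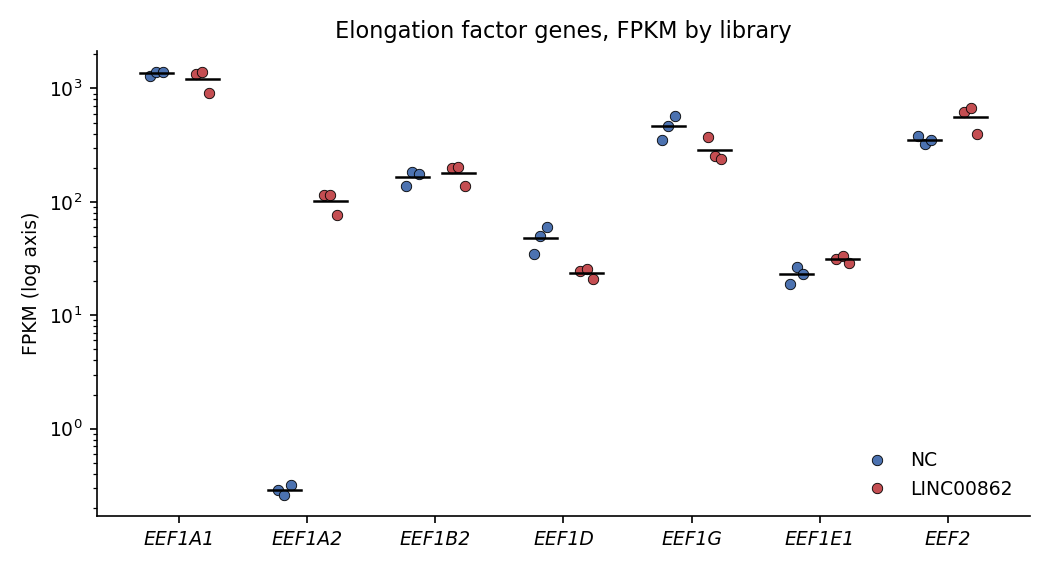
FPKM of the 7 elongation factor genes on a log axis, with 1 point per library (3 NC, 3 LINC00862) and a bar at each group mean. EEF1A2 lies at 0.290 FPKM on average in NC and at 102 FPKM in LINC00862, whereas the EEF1A1 points of the groups overlap.

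The balance of the paralogs was taken within each library, where the library's scaling cancels. The EEF1A1 to EEF1A2 ratio of FPKM was 4518, 5287 and 4362 in NC and 11.631, 12.003 and 11.923 in LINC00862. The 3 LINC00862 ratios stood close together although library 3 had a lower FPKM of both genes. The geometric mean ratio was 4706 in NC and 11.9 in LINC00862, with a mean log2 ratio of 12.20 ± 0.15 and 3.57 ± 0.02 (SD, n = 3), a 397-fold shift.

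EEF1A2 made up 0.0213% ± 0.0021 of EEF1A FPKM in NC and 7.78% ± 0.12 in LINC00862 (SD, n = 3). EEF1A1 was thus still the major form in every library. Total EEF1A, the sum of both paralogs, was 1296, 1390 and 1399 FPKM in NC and 1445, 1508 and 986.6 FPKM in LINC00862. These totals overlapped, with means of 1362 ± 57.4 and 1313 ± 285 FPKM (SD, n = 3).

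The level of the ratio depended on the length assigned to each gene, whereas a fixed length per gene cancels in the shift between the groups. The lengths behind the deposited FPKM were 1.10 to 1.13 times as long for EEF1A1 as for EEF1A2, whereas the longest protein-coding transcripts differed 2.21-fold (4441 and 2014 bases) and the coding sequences hardly at all (1386 and 1389 bases). With counts divided by the longest transcript, the EEF1A2 share was 0.0424% ± 0.0042 in NC and 14.1% ± 0.20 in LINC00862 (SD, n = 3). With counts divided by the coding sequence it was 0.0192% ± 0.0019 and 6.91% ± 0.11. The ratio of raw counts fell 388-fold, and that of FPKM fell 387-fold when the FPKM of the pseudogenes was added to EEF1A1.

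EEF1A2 lies on the minus strand of chromosome 20 (hg38, chr20:63488013-63499239), a region of the long arm that is gained in many carcinomas. Its nearest neighbors did not all move in 1 direction. PTK6, a cytoplasmic tyrosine kinase 28762 bases from EEF1A2, had 41, 34 and 31 counts in NC and 614, 465 and 351 in LINC00862 and rose (log2 fold change 3.83 ± 0.28, SE; adjusted p = 4.28e-06, edgeR). PPDPF, which lies between them at 21526 bases, had 6308, 8833 and 12049 counts in NC and 2163, 1957 and 1446 in LINC00862 and fell (log2 fold change -2.22 ± 0.26, SE; adjusted p = 7.76e-05, edgeR). On the other side, the acetylcholine receptor gene CHRNA4 had 0, 0 and 4 counts in NC and 12, 13 and 11 in LINC00862. At these low counts it was called higher (log2 fold change 3.14 ± 1.07, SE, adjusted p = 0.0286, edgeR). AL121829, at 3048 bases on the side of PPDPF and PTK6, had at most 3 counts and could not be tested. DNA copy number was not measured here.

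EEF1A1 lies on the minus strand of chromosome 6 (hg38, chr6:73515750-73521900). Its neighbors that could be tested moved in both directions, with MTO1, a mitochondrial tRNA modification enzyme, higher by a log2 fold change of 1.01 ± 0.14, CGAS, a sensor of cytosolic DNA, lower at -1.40 ± 0.17 and the lysosomal transporter SLC17A5 lower at -0.52 ± 0.17 (SE; adjusted p under 0.05 by edgeR for each).

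Because EEF1A2 is known from muscle and neurons, markers of both were counted. Of the 16 skeletal muscle markers, 12 were in the table and 5 could be tested, and all 5 passed, 3 higher and 2 lower, with a median log2 fold change of 2.34. MB, the myoglobin gene, rose from at most 8 counts to between 874 and 1353 (log2 fold change 7.86 ± 0.56, SE), TNNI1, a slow troponin gene, had 0 counts in NC and between 40 and 59 in LINC00862, and ACTA1 rose as well (2.34 ± 0.90, SE). TNNT1 and MYH3 fell (-3.26 ± 0.27 and -2.90 ± 0.71, SE), and MYOD1, MYOG, DES and CKM had 5 counts or fewer in every library. The muscle list summed to between 16.5 and 30.9 FPKM in NC and to between 8.60 and 11.1 in LINC00862. Of the 18 neuronal markers, 13 could be tested, 4 higher, 4 lower and 5 not passing. Their log2 fold changes ranged from -6.90 to 10.6, with a median of -0.09. Over all tested genes, 34.4% were higher and 29.8% lower. The neuronal list summed to between 61.5 and 70.7 FPKM in NC and to between 33.3 and 41.1 in LINC00862. The part of these markers in the EEF1A2 level was not tested.

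The genes whose profile over the 6 libraries was nearest to that of EEF1A2, measured as the root mean square difference of centered log2 CPM, were TF, SELENOP, CALCA, AGR2 and AZGP1, at differences between 0.074 and 0.131. TF codes for transferrin and SELENOP for selenoprotein P, both secreted by liver cells, and TF was 1 of the hepatocyte markers above. Those nearest to EEF1A1 were USF1, EIF2B5, VDAC2P5, PTCD1 and TMEM18-DT, at differences between 0.047 and 0.065. TMEM18-DT had only 8, 13 and 14 counts in NC and 11, 14 and 4 in LINC00862. At that level the 0.5 CPM added before the log flattens the profile. EIF2B5 is a subunit of the exchange factor of translation initiation eIF2B.

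EEF2, the translocation factor, was higher in LINC00862. Its FPKM was 384, 323 and 352 in NC and 614, 676 and 395 in LINC00862. The groups did not overlap, but the lowest LINC00862 library, library 3, stood only just above the highest NC library. The mean level was 353 ± 30.5 in NC and 562 ± 148 FPKM in LINC00862 (SD, n = 3), and the log2 fold change was 0.83 ± 0.20 (SE), or 1.78-fold.

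Set against total EEF1A in the same library, the FPKM of EEF2 was 0.296, 0.232 and 0.252 in NC and 0.425, 0.449 and 0.401 in LINC00862. Here the groups stood clearly apart, library 3 included, with means of 0.260 ± 0.033 and 0.425 ± 0.024 (SD, n = 3). EEF2 thus made up between 13.2% and 17.3% of the summed FPKM of the 7 genes in NC and between 21.9% and 25.1% in LINC00862.

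The eEF1B complex holds the exchange subunits eEF1Bα (EEF1B2) and eEF1Bδ (EEF1D) and the scaffold subunit eEF1Bγ (EEF1G). Of its 3 genes, EEF1D alone had levels that did not overlap between the groups. EEF1D had an FPKM of 35.0, 50.1 and 60.2 in NC and of 24.5, 25.4 and 20.8 in LINC00862. Every LINC00862 library was below every NC library, at 48.4 ± 12.7 and 23.6 ± 2.45 on average (SD, n = 3) and a log2 fold change of -0.88 ± 0.23 (SE). The NC libraries spread more widely than the LINC00862 libraries.

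AC067930, a gene annotated on the opposite strand of EEF1D, had counts between 11.2% and 14.5% of those of EEF1D in every library. Its own log2 fold change was -0.98 ± 0.25 (SE; adjusted p = 0.00703, edgeR). Whether the counting used strand was not given in the sources used here, so reads of EEF1D and of AC067930 may not be fully separated.

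EEF1B2 had an FPKM of 137, 184 and 176 in NC and of 200, 202 and 138 in LINC00862. The groups overlapped through LINC00862 library 3, and the log2 fold change was 0.27 ± 0.20 (SE), or 0.12 without NC library 1. EEF1B2 had 6 pseudogenes in the table, which took between 3.34% and 5.15% of the counts of the family. EEF1D to EEF1B2, a ratio of the FPKM of the exchange subunits within a library, was 0.255, 0.273 and 0.342 in NC and 0.123, 0.126 and 0.151 in LINC00862. This ratio did not overlap between the groups, at 0.290 ± 0.046 and 0.133 ± 0.016 (SD, n = 3). Its level depends on the lengths behind FPKM, which were not examined for this pair. In NC, EEF1D had 21765, 30721 and 37738 counts and EEF1B2 17382, 22945 and 22472. Their longest protein-coding transcripts were 2387 and 1098 bases long.

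EEF1G had an FPKM of 354, 469 and 574 in NC and of 370, 252 and 239 in LINC00862. LINC00862 library 1 lay within the NC range and the other libraries of its group below it, and the log2 fold change was -0.54 ± 0.25 (SE). It was -0.74 without NC library 1, where it passed the threshold, and -0.32 without NC library 3. The gene shares its position on chromosome 11 with AP002990, a readthrough gene on the same strand that starts upstream, in TUT1, and runs through EEF1G. Of the 2716 exonic bases of EEF1G in GENCODE release 29, 2714 are also exonic in AP002990.

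The counts of AP002990 were 10020, 1432 and 3918 in NC and 3928, 22926 and 1496 in LINC00862. This was between 1.74% and 34.3% of the summed count of EEF1G and AP002990, with the highest share in LINC00862 library 2 and no separation of the groups. Whether this spread came from the division of reads over the shared exons or from the readthrough transcript itself was not tested. After the counts of both genes were summed, the log2 fold change was -0.39 ± 0.22 (SE) in place of -0.54, and the normalized CPM was 1066, 1376 and 1734 in NC and 1205, 1151 and 835 in LINC00862, again with overlap.

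**Figure D2:**
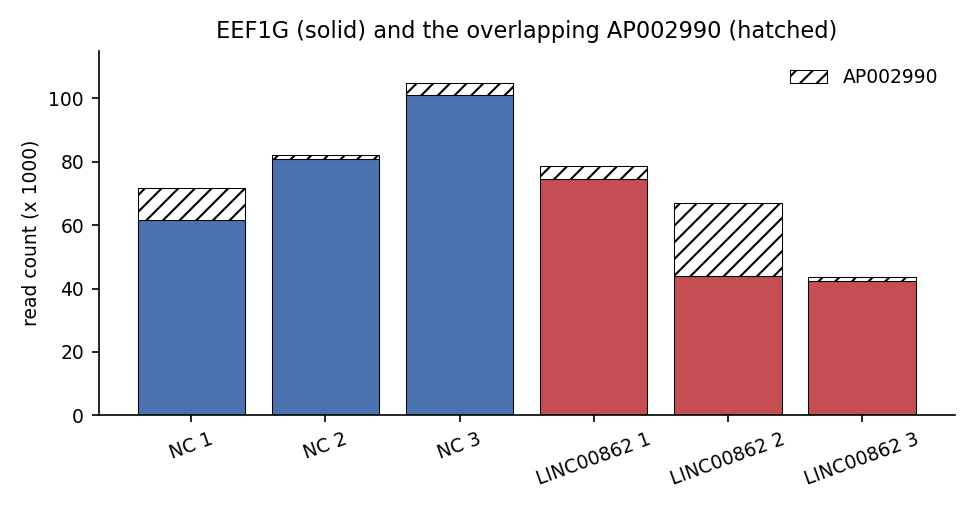
Read counts (axis in units of 1000) of EEF1G (solid bars) and, stacked on it, of AP002990 (hatched) in each of the 6 libraries. The hatched part is largest in LINC00862 library 2, at 22926 counts on 43957 of EEF1G.

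The ratio of EEF1B2 to EEF1G counts separated the groups with or without this sum. With the sum as the denominator it was 0.242, 0.279 and 0.214 in NC and 0.372, 0.383 and 0.404 in LINC00862, with means of 0.245 ± 0.032 and 0.386 ± 0.016 (SD, n = 3). With EEF1G alone the means were 0.263 ± 0.035 and 0.464 ± 0.103. The FPKM of EEF1B2, EEF1D and EEF1G together, relative to total EEF1A, overlapped between the groups at 0.497 ± 0.087 and 0.378 ± 0.051 (SD, n = 3).

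EEF1E1, also named AIMP3 or p18, is a scaffold protein of the multisynthetase complex that resembles eEF1 subunits. Its FPKM was 19.0, 26.8 and 23.1 in NC and 31.6, 33.6 and 28.9 in LINC00862. The groups did not overlap, and the mean level was 23.0 ± 3.91 in NC and 31.4 ± 2.34 in LINC00862 (SD, n = 3) with a log2 fold change of 0.61 ± 0.18 (SE). Its FPKM relative to total EEF1A was 0.0168 ± 0.0023 in NC and 0.0245 ± 0.0042 in LINC00862, without overlap.

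Counted together, 4 of the 7 genes had an adjusted p under 0.05 by edgeR, beside 64.2% of all tested genes. EEF1A2, EEF1E1 and EEF2 were the 3 higher ones, beside 34.4% of all genes, and EEF1D was the 1 lower one, beside 29.8%. The same 4 genes had FPKM that did not overlap between the groups, beside 71.1% of all tested genes. As the genes were picked with this contrast known, nothing is read from these counts. LINC00862 library 3 had the lowest FPKM of its group for all 7 genes. Ordered by mean FPKM, EEF1A1 was followed by EEF1G, EEF2, EEF1B2, EEF1D, EEF1E1 and EEF1A2 in NC and by EEF2, EEF1G, EEF1B2, EEF1A2, EEF1E1 and EEF1D in LINC00862. In NC the libraries of EEF1G and EEF2 overlapped in this order. The order depends on the lengths behind FPKM, which were examined for the EEF1A pair only. In LINC00862, EEF1D had 17591, 15785 and 13112 counts and EEF1E1 5043, 4635 and 4053. Their longest protein-coding transcripts were 2387 and 1077 bases long. Relative to these lengths EEF1D had more counts than EEF1E1 in each LINC00862 library, the reverse of their FPKM order.

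**Figure D3:**
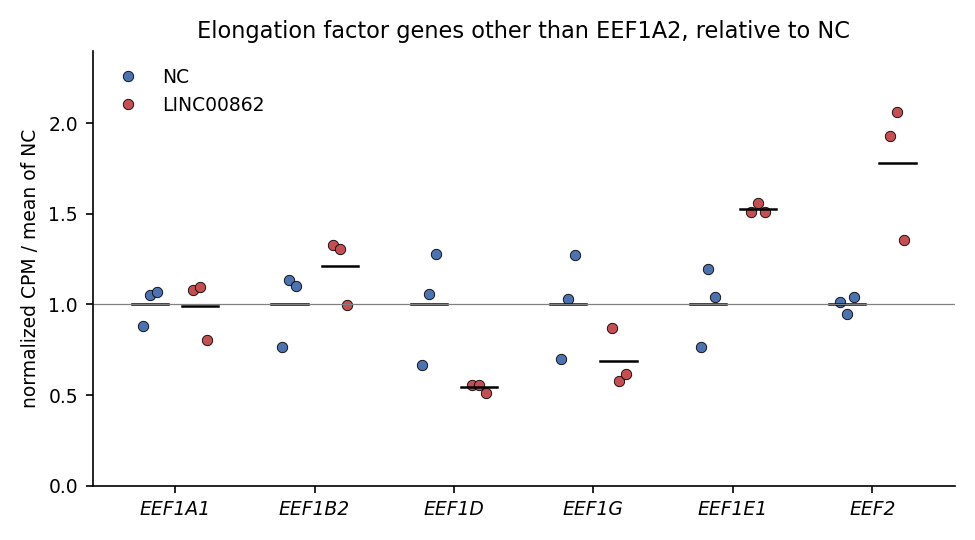
Normalized CPM of the 6 elongation factor genes other than EEF1A2, each divided by its NC mean, with 1 point per library and a bar at each group mean. EEF2 and EEF1E1 lie above their NC points and EEF1D below, whereas EEF1A1, EEF1B2 and EEF1G overlap.

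Several elongation factor mRNAs begin with a C and a pyrimidine tract, the terminal oligopyrimidine motif through which mTOR signaling acts on their translation. To show which of the genes carry it in the RefSeq annotation, 15 bases before and 15 from the annotated start are given (GRCh38.p14). The tract from the start is in capitals. EEF1A2 and EEF1D had no start site in the sources used here and were not searched.
EEF1A1: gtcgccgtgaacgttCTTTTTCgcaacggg
EEF2: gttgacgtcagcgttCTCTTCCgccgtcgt
EEF1B2: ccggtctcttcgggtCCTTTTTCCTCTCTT
EEF1G: tctcccgggcggcttactttgcggcagcgc
EEF1E1: tgttctgcaggtctcgcgtctgccaggagc
The windows are chr6:73521018-73521047 (minus), chr19:3985449-3985478 (minus), chr2:206159880-206159909 (plus), chr11:62573877-62573906 (minus) and chr6:8102534-8102563 (minus). Searched as a C at the start followed by at least 4 pyrimidines on the transcribed strand, the motif stood at EEF1A1, EEF2 and the second of 2 EEF1B2 starts, but not in these letters at EEF1G or EEF1E1. It stood at 4.07% of all 35116 promoters and at 60.3% of the 78 promoters of ribosomal protein genes. Among the genes searched, the 3 with the motif had log2 fold changes of -0.01 ± 0.20, 0.83 ± 0.20 and 0.27 ± 0.20 (SE), in the order EEF1A1, EEF2 and EEF1B2. The values of EEF1A1 and EEF1B2 overlapped between the groups.

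The partners of the elongation factors were counted from lists of pathway genes. In the multisynthetase complex, which EEF1E1 is part of and which holds several aminoacyl-tRNA synthetases, 10 other genes were tested, of which 3 rose, 2 fell and 5 did not pass, with a median log2 fold change of -0.10. Beside these stand 34.4% of all tested genes higher, 29.8% lower and a median of 0.11. EPRS1, which charges glutamate and proline tRNA, rose from 33.4, 22.6 and 20.9 FPKM to 71.4, 77.1 and 46.9 FPKM (log2 fold change 1.52 ± 0.20, SE; adjusted p = 0.000179, edgeR). MARS1, the methionyl-tRNA synthetase that binds EEF1E1, rose by 0.97 ± 0.14 and IARS1 by 0.51 ± 0.18 (SE). RARS1, the arginyl-tRNA synthetase, fell from 52.5, 49.2 and 49.1 FPKM to 16.7, 17.4 and 12.8 (log2 fold change -1.52 ± 0.14, SE; adjusted p = 1.6e-05, edgeR), and QARS1 fell by 0.69 ± 0.15 (SE). EPRS1, MARS1, RARS1 and QARS1 kept an adjusted p under 0.05 in all 13 alternatives, and IARS1 in 5. VARS1, the valyl-tRNA synthetase bound to the eEF1B complex, did not pass, with a log2 fold change of 0.26 ± 0.17 (SE).

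The enzymes that methylate eEF1A at lysines and its amino terminus moved in both directions. Of 5 genes tested, 2 rose, 2 fell and 1, EEF1AKMT1, did not pass, with a median log2 fold change of -0.31, beside 64.2% of all genes passing. EEF1AKMT3 rose from 2.17, 1.69 and 2.63 FPKM to 6.91, 5.63 and 6.15 (log2 fold change 1.70 ± 0.22, SE), and EEF1AKMT4 by 1.45 ± 0.29. EEF1AKMT2 fell from 4.32, 4.45 and 3.73 FPKM to 1.24, 0.974 and 1.22 (log2 fold change -1.68 ± 0.19, SE), and EEF1AKNMT, which methylates both the amino terminus and a lysine, fell by 0.87 ± 0.23. All 4 kept an adjusted p under 0.05 by edgeR, DESeq2 or limma in the 13 alternatives.

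Of the 9 genes that modify eEF2, 3 rose, 3 fell and 3 did not pass, at a median log2 fold change of 0.07, beside 64.2% of all genes passing. EEF2K, the kinase that phosphorylates eEF2 and slows elongation, rose from 5.59, 3.54 and 4.01 FPKM to 8.25, 7.88 and 7.22 (log2 fold change 1.01 ± 0.16, SE; adjusted p = 0.000505, edgeR). Thus the mRNAs of eEF2 and of its kinase were both higher in LINC00862. The diphthamide genes, whose products build the modified histidine of eEF2, were split, with DPH5 and DPH1 higher by 0.52 ± 0.15 and 0.46 ± 0.17 and DPH2, DPH7 and DPH3 lower at -0.75 ± 0.14, -0.68 ± 0.20 and -0.37 ± 0.14 (SE). EEF2K and DPH2 kept their adjusted p under 0.05 in all 13 alternatives, whereas DPH7 did in 10, DPH5 in 8, DPH3 in 6 and DPH1 in 4. Under the replicate block, and without any 1 of NC library 2 and LINC00862 libraries 1 and 2, 3 genes of the list passed in place of 6.

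Of 7 other elongation and release genes tested, 1 rose, 4 fell and 2 did not pass, at a median of -0.47 and beside 64.2% of all genes passing. EIF5A2, the second gene of the hypusinated factor eIF5A, fell from 3.58, 2.13 and 2.00 FPKM to 0.315, 0.349 and 0.218 (log2 fold change -2.94 ± 0.27, SE; adjusted p = 1.9e-05, edgeR). It thus moved opposite to EEF1A2, the minor paralog of eEF1A. EIF5A itself, at 187, 204 and 254 FPKM in NC and 148, 143 and 125 in LINC00862, had a log2 fold change of -0.47 ± 0.18 (SE) and passed in 5 of 13 alternatives. HBS1L, a ribosome rescue factor related to eEF1A, fell by 1.31 ± 0.14, and EEFSEC, which delivers selenocysteine tRNA in the place of eEF1A, fell by 1.08 ± 0.26. GSPT1, the release factor eRF3a and also a relative of eEF1A, rose by 1.68 ± 0.14 (SE). GSPT1, HBS1L, EEFSEC and EIF5A2 passed in all 13 alternatives.

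Among the 5 mitochondrial elongation genes, GFM2 and GUF1 were higher by 0.43 ± 0.15 and 0.49 ± 0.15 (SE), 3 did not pass, and the median was 0.29, beside 34.4% of all genes higher. GFM2 held in 4 and GUF1 in 7 of 13 alternatives, and neither passed without NC library 2, LINC00862 library 1 or LINC00862 library 2, while 1 of the list did without NC library 3. Of 34 initiation factor genes, 3 rose, 17 fell and 14 did not pass, at a median of -0.44, beside 34.4% of all genes higher and 29.8% lower. EIF3J and EIF4B had the largest rises (0.74 ± 0.12 and 0.70 ± 0.18), and EIF6 and EIF2B3 the largest falls (-1.44 ± 0.25 and -1.38 ± 0.19, SE). Of 79 ribosomal protein genes, 8 rose, 18 fell and 53 did not pass, at a median of -0.33, beside the same shares. The 26 that passed became 57 without NC library 1, 15 without NC library 2, 16 without LINC00862 library 1 and 15 without LINC00862 library 2. RPS21 and RPL37 had the largest rises (2.99 and 1.81 on the log2 scale), and RPS12 and RPSA the largest falls (-1.33 and -1.30).

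**Figure D4:**
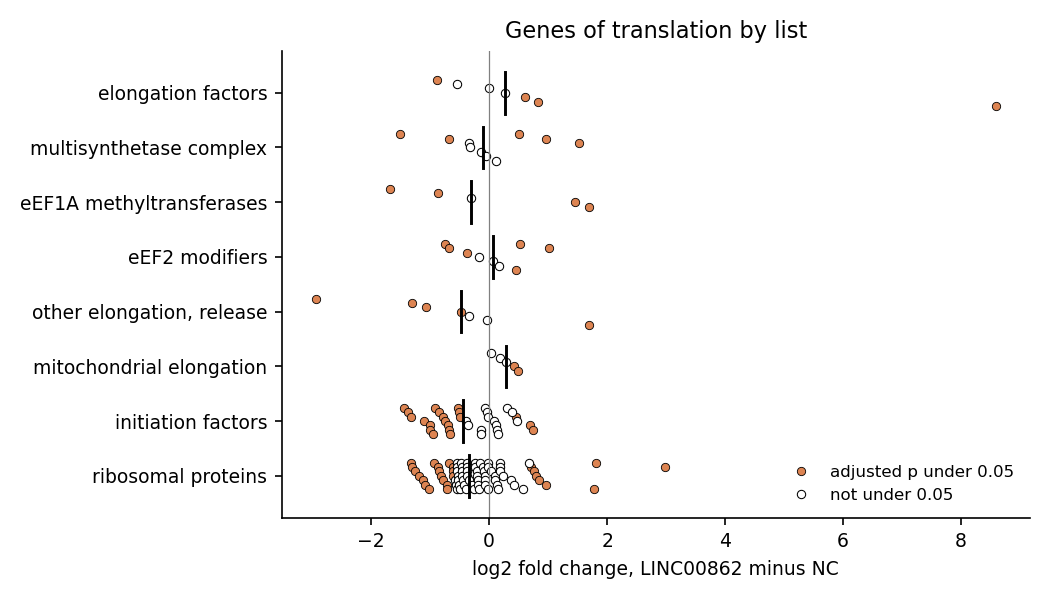
Log2 fold change of LINC00862 against NC for the tested genes of 8 lists, with 1 point per gene, filled where the adjusted p of edgeR was under 0.05, and a bar at each list's median. EEF1A2 lies apart at 8.59, and the medians of the other lists lie between -0.47 and 0.29.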

How the data were processed

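Poly(A) RNA of 6 HCCLM3 libraries was sequenced as stranded paired reads of 150 bases with molecular identifiers in the adapters. The deposited table held, for 35856 genes, raw read counts and FPKM values made by the authors on hg38. The submitters' processing notes name cutadapt 1.9, HISAT2 2.0.4, UMI-tools, StringTie 1.3.4d, DESeq2 and edgeR, without role or order. The annotation and the strand setting of the counting were not given in the sources used here. FPKM was used for levels between genes and counts for tests.

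Counts were fitted with edgeR's quasi-likelihood test, TMM scaling and filterByExpr over the whole table (20741 genes tested) with Benjamini-Hochberg adjustment at 0.05. Normalized CPM used the same scaling. The fit was tested on artificial counts with known changes. Tool versions were R 4.3.3, edgeR 4.0.16, DESeq2 1.42.0, limma 3.58.1 and Python 3.11.15. The genes and lists were chosen with earlier results of these data known. Named genes were LINC00862, the 7 elongation factors, all genes of short lists and the 2 largest rises and falls of lists over 10 genes, the main pseudogenes, the 3 nearest neighbors on each side of EEF1A1 and EEF1A2 (some are not reported here), overlapping genes, and the 5 nearest profiles. Length alternatives and the sum of EEF1G and AP002990 were chosen after the data were seen. Depth was 58241123 to 68229070 counts per library, and EEF1A2 had at least 85 counts in each.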

Additional observations from a re-analysis of the deposited data

How the results depend on the processing

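EEF1A2, EEF1B2, EEF1D and EEF1E1 kept their direction and their side of the 0.05 threshold in all 13 alternatives. EEF2 did so in 11 and EEF1G in 9. As the genes were picked with this contrast known, these calls only describe how the fits depend on the processing. EEF1A1, near 0, changed sign to 0.040 with DESeq2 size factors and to 0.20 with upper quartile scaling, and ranged from -0.089 to 0.12 with 1 library left out. Upper quartile scaling moved the median log2 fold change of all genes from 0.11 to 0.32, and library size alone to -0.05. EEF1G passed the threshold at -0.69 with library size alone and at -0.70 with limma-trend on FPKM at either pseudocount (1 or 0.1), and ranged from -0.75 to -0.32 with 1 library left out. EEF2 did not pass with limma-trend, at 0.64 with either pseudocount. EEF1A2 was at its lowest, 6.30, with limma-trend and a pseudocount of 1. Same-numbered libraries showed no shared deviation (correlations of deviations of -0.09, -0.08 and -0.06), and whether they were paired was not given in the sources used here. EEF1B2 ranged from 0.12 to 0.40 with 1 library left out. A replicate block left 3 genes passing among the eEF2 modifiers and 1 among the mitochondrial elongation genes, 12098 genes in all, and changed no call of the 7 elongation factors. The mitochondrial list had 0 with library size alone and with limma-trend at either pseudocount, and 1 with every gene of at least 1 count tested. With 1 library left out it had 0 to 3, the eEF2 modifiers 3 to 6 and the ribosomal proteins 15 to 57. Ribosomal proteins passed in 42 cases with library size alone. The EEF1A1 to EEF1A2 ratio was 5219 in NC and 13.4 in LINC00862 by counts, 6203 and 16.0 with pseudogenes, 2367 and 6.10 by the longest transcript, and 5230 and 13.5 by coding length. The EEF1A2 share was 6.92% by counts in LINC00862, 0.0162% and 5.88% with pseudogenes, 0.0424% and 14.1% by the longest transcript, and 0.0192% and 6.91% by coding length. Total EEF1A with pseudogenes was 1795 and 1728 FPKM. The cause of these changes was not tested, apart from the length and the pseudogenes, which enter by construction.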
